A study of Homo sapiens with 14 samples.

Results

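Colorectal cancer stem cell markers were followed across the long-term culture (LTC) of SW620 cells, and the 10 genes EPCAM, CD44, PROM1, ALCAM, CD24, SOX9, SMOC2, ALDH1A1, BMI1 and OLFM4 were chosen by symbol because each is in common use as such a marker. All 10 were listed among the 36601 genes of the 8 single-cell libraries and among the 60669 genes of the 6 bulk libraries. SW620 is a colorectal cancer cell line, and LTC keeps it growing as colonies for 15 days without passage. The single-cell libraries came from days 6, 9, 12 and 15, with 1 library per line and day. The labels call the control line SW620, and the study's text describes it as SW620 carrying a FLAG vector, so it is named SW620-FLAG below. The other line, SW620-TET2CD, overexpresses the catalytic domain of TET2, an enzyme that oxidises 5-methylcytosine in DNA. The bulk libraries were SW480 and SW620 on day 6, and SW620 and SW620-TET2CD cells from inside and from outside the colonies on day 15, again 1 library each. SW480 is a line from the same patient as SW620, and inside and outside cells were separated by a strainer after a brief digestion, so both locations of a line may come from the same culture. Each line is a transformed culture with no normal intestinal cells beside it.

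In the normal intestine, stem cells sit at the base of the crypt, divide under WNT signals and give rise to all other epithelial cells. In colorectal tumours, cells able to start a new tumour have been enriched with antibodies against surface proteins such as CD44, CD133 (the product of PROM1), CD166 (ALCAM), CD24 and EPCAM, or by the activity of aldehyde dehydrogenases. SOX9, SMOC2, OLFM4 and BMI1 were taken up as markers from studies of crypt cells, and none of the 10 marks stem cells alone.

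TET2 acts on methylated cytosines, most of which lie in CpG dinucleotides, and the CpG content of the promoters is given as a description. A link between CpG content and the course of a marker was not tested. The sequences shown belong to SMOC2 and PROM1, which were higher on late days, and to ALDH1A1, which moved the other way with time. They come from the RefSeq promoter windows of GRCh38.p14 (250 bases before to 50 bases after a transcript start), less the bases after the start and those in annotated exons. Each is written 5′ to 3′ on the strand of the gene, with every CpG in capitals.
SMOC2 (chr6:168440934-168441150, plus strand): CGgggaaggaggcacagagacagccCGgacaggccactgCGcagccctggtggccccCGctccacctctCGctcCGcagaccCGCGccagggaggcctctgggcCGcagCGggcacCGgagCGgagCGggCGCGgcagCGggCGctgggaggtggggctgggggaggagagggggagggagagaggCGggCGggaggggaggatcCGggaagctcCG
PROM1 (chr4:16083733-16083977, minus strand): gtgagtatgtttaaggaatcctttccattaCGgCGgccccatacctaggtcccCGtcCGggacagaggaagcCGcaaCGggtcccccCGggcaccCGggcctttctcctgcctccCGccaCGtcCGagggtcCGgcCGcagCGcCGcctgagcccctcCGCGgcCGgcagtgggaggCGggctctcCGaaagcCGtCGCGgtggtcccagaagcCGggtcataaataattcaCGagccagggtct
ALDH1A1 (chr9:72953057-72953303, minus strand): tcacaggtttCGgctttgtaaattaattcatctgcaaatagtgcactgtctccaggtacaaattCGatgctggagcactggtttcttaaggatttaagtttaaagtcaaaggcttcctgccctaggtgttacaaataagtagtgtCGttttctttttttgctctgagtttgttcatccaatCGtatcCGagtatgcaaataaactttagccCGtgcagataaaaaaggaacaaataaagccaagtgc
The SMOC2 stretch of 217 bases held 21 CpGs, the PROM1 stretch shown, of 245 bases, held 25, and the ALDH1A1 stretch of 247 bases held 6. A further PROM1 stretch of 250 bases (chr4:16076119-16076368), not shown, held 5. In the full windows SMOC2 had 28 CpGs and ALDH1A1 had 7, and the 4 PROM1 windows had 6 to 32, against a median of 14 over all 35116 windows. Of the 10 markers, 8 had a window in the RefSeq table, 14 windows in all, and EPCAM and SOX9 had none. OLFM4 had 3 CpGs, and the other windows, those of ALCAM, CD24, BMI1 and CD44, had 18 to 65. The letters CTTTG, the core of the motif bound by TCF and LEF factors of the WNT pathway, were found on either strand in 7 of the 14 windows and in 47.5% of all windows. The letters ACGTG, the core of the hypoxia response element, were found in 5 of the 14 and in 21.4% of all. The windows of a gene overlap in part, and a match of these letters is a description of the sequence only. Methylation was not measured in these data.

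Depth set what could be seen. Of 67056 barcodes, 48282 had 200 to 4500 genes, 1000 to 20000 UMIs and no more than 10% of UMIs from mitochondrial genes and were kept, with 3894 to 8154 cells per library and a median of 6640 to 13479 UMIs per cell. A UMI is a molecular tag that marks 1 captured RNA molecule, and CPM below is a gene's UMIs relative to all UMIs of the kept cells of a library, in parts per 1e6. Expected read counts summed to 16470176 to 25840563 per bulk library. No pair of single-cell libraries shared more than 31 barcodes. The transgene followed the labels, with TET2 at 2.11 to 3.90 CPM in SW620-FLAG and 40.2 to 107 CPM in SW620-TET2CD libraries. The epithelial keratins KRT8, KRT18 and KRT19 were at 1314 CPM or more in every library. CDX1, CDH17 and LGALS4, other markers of colorectal epithelium, stayed at 2.98 CPM or below. Of 14 markers of other cell types, the leukocyte gene PTPRC, the T cell gene CD3E, the collagen gene COL3A1, the endothelial gene CDH5 and the globin gene HBB had at most 3 UMIs in each of the 8 libraries. LYZ reached 31.5 CPM and CD68 reached 36.9 CPM.

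EPCAM was the most abundant of the markers in these cells, and OLFM4 was all but absent. In bulk RNA-seq, where TPM is a level corrected for depth and transcript length, SW620 cells on day 6 had 407 TPM of EPCAM, 141 of CD24, 67.9 of SOX9, 58.8 of SMOC2 and 56.8 of PROM1. BMI1 was at 23.0 TPM, ALCAM at 5.94 TPM, CD44 at 5.86 TPM and ALDH1A1 at 0.16 TPM, and no OLFM4 read was counted. Over the 5 libraries of SW620 and SW620-TET2CD, EPCAM ranged from 379 to 500.0 TPM and lay above every other marker. CD24, at 86.3 to 141 TPM, and SMOC2, at 48.9 to 101 TPM, overlapped in range. SMOC2 also overlapped SOX9, at 60.4 to 74.2 TPM, and PROM1, at 34.9 to 56.8 TPM, while SOX9 lay above PROM1. ALCAM and CD44 overlapped as well, at 5.94 to 13.1 TPM and 3.41 to 8.10 TPM. OLFM4, a secreted glycoprotein of crypt base cells, had 1 read inside and 4 reads outside the SW620 colonies and none in the remaining 4 libraries. It had no UMI in any kept cell, which allows a share of up to 0.0368% to 0.0770% of cells with a UMI, by library, where the limit for a count of 0 is 3 counts over the number of cells.

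Detection per cell did not keep the order of the bulk levels throughout. To set cells of different depth side by side, each cell was thinned at random to 4000 UMIs. A UMI of EPCAM, an adhesion protein of epithelial cells, was then found in 85.7% to 90.5% of cells across the 8 libraries. CD24, a small glycoprotein anchored in the membrane, was found in 26.2% to 37.5% of cells, SOX9 in 29.6% to 59.5% and SMOC2 in 10.0% to 24.5%. PROM1, at 1.99% in SW620-FLAG on day 6, was seen there less often than BMI1 (6.93%) and CD44 (3.50%), both of lower TPM in SW620. The summed UMIs of that library had the same order as detection, with PROM1 at 4.46 CPM, CD44 at 9.47 CPM and BMI1 at 18.3 CPM. BMI1, a Polycomb protein, was seen in 5.11% to 8.69% of cells, CD44, the receptor for hyaluronan, in 1.80% to 3.90%, and ALCAM, an adhesion molecule of the immunoglobulin family, in 1.36% to 3.44%. A cell carried a UMI of 2 of the 10 markers at the median in every library, and 2.40% to 5.71% of cells carried none. Without thinning, EPCAM was found in 94.1% to 99.2% of cells and CD44 in 4.33% to 11.4%. No cell type that should lack these genes was present in the cultures, so the share that free RNA gives could not be measured. Intervals on shares above 0 are exact binomial (Clopper-Pearson) at 95%, and these and the limits for a count of 0 cover counting error only.

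The markers did not change together during LTC. Days 12 and 15 were set against days 6 and 9 over the 8 libraries, with the line as a block. Of the 9 markers tested, 5 passed an adjusted p of 0.05 in edgeR's quasi-likelihood test, 4 of them higher and 1 lower on late days, while 58.0% of all 16526 tested genes passed. The share of all genes called was 29.4% higher and 28.6% lower, so 5 of 9 is close to the share of genes at large. The median log2 fold change was 0.12 over the markers and 0.04 over all genes. With upper-quartile factors in place of TMM the gene calls were split 6250 higher to 3636 lower instead of 4861 to 4726, and the median log2 fold change of all genes went from 0.04 to 0.21, with the same 5 markers called in the same directions. Each condition was 1 library, so these tests measure the spread between libraries after the block and not between repeated cultures.

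PROM1, which encodes a membrane protein of cell protrusions, had the steepest rise of the markers. On days 6, 9, 12 and 15 it stood at 4.46, 5.86, 18.4 and 10.9 CPM in the SW620-FLAG libraries, while the SW620-TET2CD libraries held 5.22, 9.30, 23.7 and 27.7 CPM. Every late library lay above every early library, and the mean of the late days was 2.83 times that of the early days in SW620-FLAG and 3.55 times in SW620-TET2CD. The log2 fold change was 1.55 ± 0.20 (SE, edgeR, adjusted p = 0.000124). The share of thinned cells with a PROM1 UMI in SW620-FLAG of days 6, 12 and 15 was 1.99% (95% interval 1.64 to 2.40), 7.11% (6.32 to 7.96) and 3.82% (3.36 to 4.33). In SW620-TET2CD the same days gave 2.25% (1.94 to 2.61), 9.03% (8.15 to 9.99) and 10.0% (9.22 to 10.8).

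SOX9, a transcription factor of crypt progenitors and Paneth cells, rose in both lines. Its levels on the 4 days were 96.0, 104, 248 and 269 CPM in SW620-FLAG cells, against 92.9, 143, 243 and 326 CPM in SW620-TET2CD cells. Early and late libraries did not overlap, and the late mean was 2.58 times the early mean in SW620-FLAG and 2.42 times in SW620-TET2CD (log2 fold change 1.22 ± 0.15 (SE), edgeR, adjusted p = 0.00011). The share of thinned cells with a UMI was 29.6% to 40.1% on early days and 52.5% to 59.5% on late days. The variance of SOX9 UMIs over thinned cells was 1.20 to 1.34 times their mean on early days and 1.71 to 2.20 times on late days, where counting alone gives a ratio near 1. The mean itself went from 0.39 to 0.60 UMIs per thinned cell on early days to 1.02 to 1.37 on late days. At an equal relative spread this ratio rises with the mean, and a change in spread apart from the level was not tested.

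**Figure D1:**
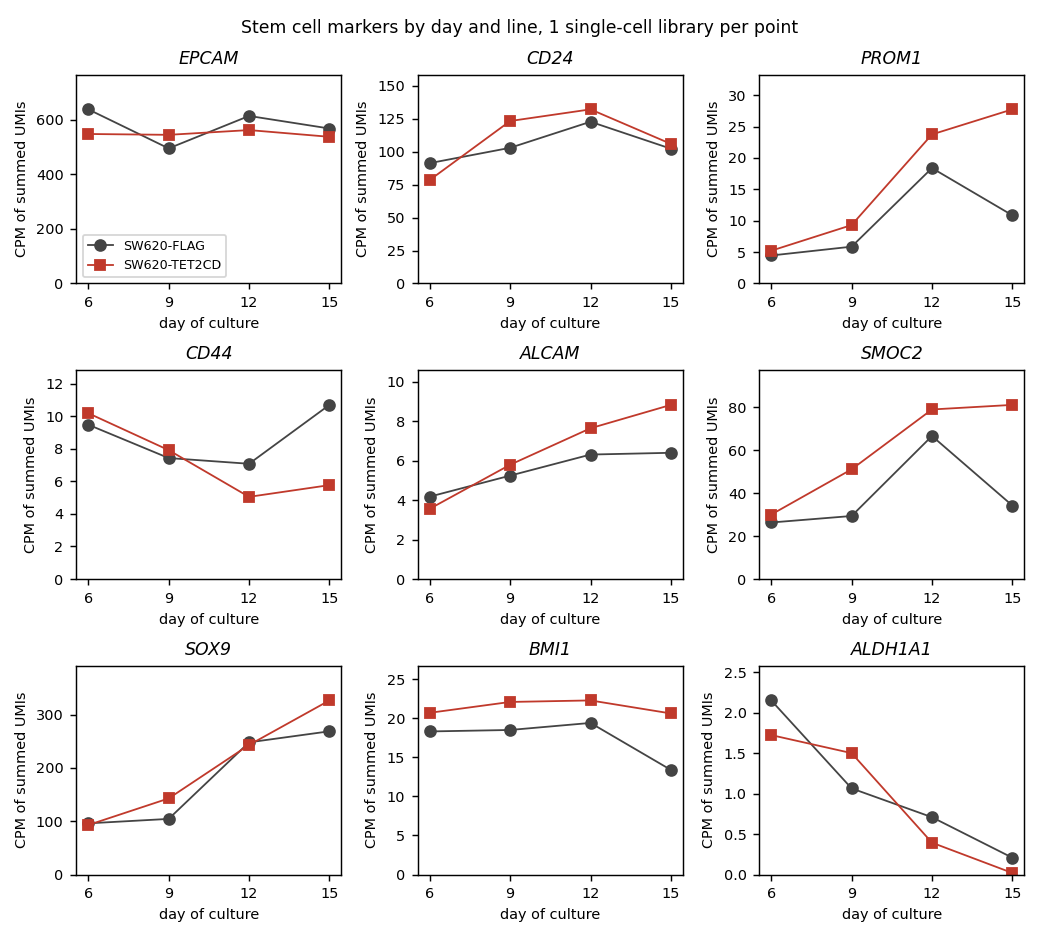
CPM of summed UMIs (y axis, starting at 0, with its own scale in each panel) against the day of culture for 9 markers in SW620-FLAG (circles) and SW620-TET2CD (squares), with 1 library per point and OLFM4 left out because it had no UMI. PROM1 and SOX9 lay higher in all late than in all early libraries, ALDH1A1 fell in each line, and EPCAM stayed between 496 and 639 CPM.

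SMOC2, a secreted matrix protein found in crypt base stem cells, followed PROM1 with a smaller rise. It measured 26.3, 29.3, 66.5 and 34.2 CPM in SW620-FLAG cells, against 30.0, 51.0, 78.9 and 81.0 CPM in SW620-TET2CD cells. Within each line the late libraries lay above the early ones, but the SW620-FLAG library of day 15 lay below the SW620-TET2CD library of day 9. The late mean was 1.81 times the early mean in SW620-FLAG and 1.97 times in SW620-TET2CD, and the log2 fold change was 0.81 ± 0.19 (SE, edgeR, adjusted p = 0.00458). In SW620-FLAG both PROM1 and SMOC2 were highest on day 12 and lower again on day 15.

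ALCAM rose less than the others. It stood at 4.17, 5.24, 6.30 and 6.39 CPM in SW620-FLAG cells, and SW620-TET2CD cells had 3.56, 5.79, 7.64 and 8.82 CPM. The log2 fold change was 0.52 ± 0.17 (SE, edgeR, adjusted p = 0.0227). Leaving out a library of day 6 or the SW620-TET2CD library of day 15 ended this call, where edgeR gave an adjusted p of 0.068 and 0.0737 without the SW620-FLAG and the SW620-TET2CD library of day 6, and of 0.061 without the latest SW620-TET2CD library.

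ALDH1A1, a cytosolic enzyme that oxidises retinaldehyde and whose activity has been used to sort tumour stem cells, went the other way. Its levels fell over the 4 days from 2.15 through 1.07 and 0.71 to 0.21 CPM in SW620-FLAG and from 1.73 through 1.502 and 0.39 to 0.02 CPM in SW620-TET2CD. The last of these values rests on 1 UMI, against 159 UMIs in SW620-FLAG on day 6. The log2 fold change was −2.44 ± 0.55 (SE, edgeR, adjusted p = 0.00352). At its highest ALDH1A1 was found in 0.71% of thinned cells (95% interval 0.50 to 0.97, SW620-FLAG day 6), and in SW620-TET2CD on day 15 it was found in 0 of 5549 thinned cells, which by the same limit of 3 counts allows a share of up to 0.0541%. On early days its UMIs lay in few cells. In the 4 early libraries the variance was 1.26 to 2.34 times the mean, and a thinned cell carried up to 6 of its UMIs.

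The remaining 4 markers tested were not called between late and early days. EPCAM had a log2 fold change of −0.07 ± 0.12 (SE, edgeR, adjusted p = 0.644) and CD24 of 0.12 ± 0.15 (SE, edgeR, adjusted p = 0.502). EPCAM had 639, 496, 615 and 569 CPM on the 4 days in SW620-FLAG cells, and SW620-TET2CD cells had 548, 545, 563 and 538 CPM. CD24 measured 91.4, 103, 123 and 102 CPM in SW620-FLAG cells, with 78.6, 123, 132 and 106 CPM in the other line. Early and late libraries overlapped for both genes, and day 12 gave the highest CD24 value in each line. BMI1, at 18.3, 18.5, 19.4 and 13.4 CPM in SW620-FLAG cells and 20.7, 22.1, 22.3 and 20.6 CPM in SW620-TET2CD cells, was −0.19 ± 0.12 (SE, edgeR, adjusted p = 0.185). CD44 was −0.43 ± 0.23 (SE, edgeR, adjusted p = 0.138), with 9.47, 7.42, 7.07 and 10.7 CPM in SW620-FLAG cells, against 10.2, 7.91, 5.04 and 5.76 CPM in SW620-TET2CD cells. Late and early CD44 values overlapped in SW620-FLAG and did not overlap in SW620-TET2CD. Without the SW620-FLAG library of day 15 the log2 fold change of CD44 was −0.70 (edgeR, adjusted p = 0.00847).

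Division markers and markers of other cell types moved with the days. The share of thinned cells with a UMI of MKI67, TOP2A or CENPF, genes of dividing cells, was 70.9% to 77.7% on early days and 12.0% to 23.0% on late days. Among cells without such a UMI, PROM1 (1.11 ± 0.22 log2), SOX9 (1.17 ± 0.15), SMOC2 (0.71 ± 0.19) and ALCAM (0.59 ± 0.20) were higher and ALDH1A1 (−3.45 ± 0.57) was lower on late days (SE, edgeR, adjusted p = 0.000165 to 0.0321). Among cells with such a UMI, ALCAM was 0.29 ± 0.23 (SE, edgeR, adjusted p = 0.317) and the other 4 kept their direction and passed. The summed level of the 14 markers of other cell types was 9.50 to 19.9 CPM on early days and 27.3 to 61.5 CPM on late days, of which LYZ and CD68 made up most, while PTPRC had 0 UMIs in 5 of the 8 libraries.

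**Figure D2:**
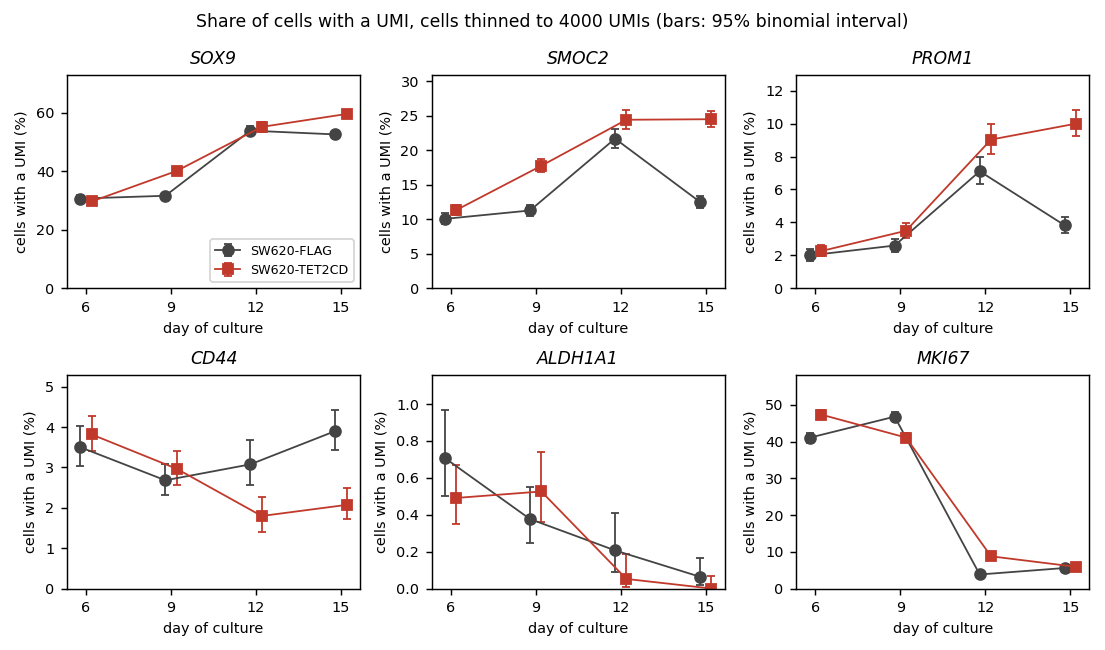
Share of cells with at least 1 UMI (y axis, percent, starting at 0) by day for 5 markers and for MKI67, with each cell thinned to 4000 UMIs, in SW620-FLAG (circles) and SW620-TET2CD (squares). Bars are 95% exact binomial intervals of 1 library each. SOX9 went from 29.6% to 40.1% on early days to 52.5% to 59.5% on late days, while MKI67 went from above 41% to below 9%.

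Genes of the same pathways gave context, and their counts are to be read against the 58.0% of all genes that passed, 29.4% higher and 28.6% lower. The examples are genes with a mean of 8 CPM or more. Among 24 other genes used as intestinal stem cell markers, 19 were tested and 7 rose and 7 fell on late days (median log2 fold change 0.01, against 0.04 for all genes). The 3 with the largest changes by the rule given below were all among the 7 that fell, and the 7 that rose are not named. CDCA7 (−1.25 ± 0.16, edgeR, adjusted p = 0.000134), EPHB2, a receptor of crypt progenitors (−1.01 ± 0.24, edgeR, adjusted p = 0.00423), and LGR5, the WNT-linked receptor of crypt base stem cells (−0.96 ± 0.37, edgeR, adjusted p = 0.0435), were lower. Of 16 other aldehyde dehydrogenase genes tested, 11 fell and 2 rose, with a median of −0.77. ALDH3A1 (−3.12 ± 0.36), ALDH16A1 (−1.48 ± 0.17) and ALDH1B1 (−1.27 ± 0.17) were among those that fell (SE, edgeR, adjusted p = 7.39e-05 to 0.000177). Of 18 subunits of Polycomb repressive complex 1, in which BMI1 works, 8 rose and 5 fell, among them PCGF2 (0.80 ± 0.11) and PHC3 (0.72 ± 0.18). Among 15 tested partners of CD44 and EPCAM, 8 rose and 4 fell. HAS3, which makes hyaluronan, was lower (−1.42 ± 0.16), while CLDN7, a claudin bound by EPCAM (1.10 ± 0.28), and ADAM17, a protease that cuts CD44 (0.95 ± 0.16), were higher. Of 4 pluripotency factors tested none rose and 2 fell, SOX2 among them (−2.40 ± 0.38, SE, edgeR, adjusted p = 0.000414). Of 9 epithelial genes tested 3 rose and 1 fell, with the adhesion protein CDH1 at 1.39 ± 0.19 and the epithelial factor ELF3 at 1.15 ± 0.15. Of 8 tested markers of other cell types 5 rose and 0 fell, with CD68 at 3.103 ± 0.53 and LYZ at 1.07 ± 0.23 (SE, edgeR, adjusted p = 0.00016 to 0.00235 for these 4 genes).

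PROM1 and SMOC2 also passed in the comparison of SW620-TET2CD with SW620-FLAG, which took the day as block. They were 2 of 9 markers, both higher in SW620-TET2CD, while 4.21% of the 16526 genes passed, 2.37% higher and 1.85% lower. The median log2 fold change was 0.06 over the markers and −0.0035 over all genes. PROM1 was higher in SW620-TET2CD on 4 of 4 days, by 1.17, 1.59, 1.29 and 2.55 times on days 6, 9, 12 and 15 (log2 fold change 0.56 ± 0.13 (SE), edgeR, adjusted p = 0.0341). SMOC2 was so as well on 4 of 4 days, by 1.14, 1.74, 1.19 and 2.37 times (0.52 ± 0.13 (SE), edgeR, adjusted p = 0.05, just inside the threshold). The gap was widest on day 15, when the SW620-FLAG library had come down again. The median UMIs per kept cell were 6640 in SW620-FLAG against 11152 in SW620-TET2CD on day 9 and 7127 against 8310.5 on day 15. On days 6 and 12 SW620-FLAG was the deeper library, at 13479 against 8615.5 and 13110.5 against 12379. The part of depth in these ratios was not tested. Neither call was stable. Without either library of day 9 or of day 15, and with no day block, neither gene passed, and the log2 fold changes then lay between 0.38 and 0.62 for PROM1 and between 0.37 and 0.52 for SMOC2 (edgeR, adjusted p = 0.0556 to 1). BMI1 was higher in SW620-TET2CD on 4 of 4 days, at 20.6 to 22.3 CPM against 13.4 to 19.4 CPM, with a log2 fold change of 0.21 ± 0.09 that did not pass (SE, edgeR, adjusted p = 0.273).

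The other markers did not pass between the lines, except that CD44 passed as lower in SW620-TET2CD when no filter on low counts was set (−0.40, edgeR, adjusted p = 0.0155). EPCAM was −0.17 ± 0.12, CD44 −0.38 ± 0.18, ALCAM 0.06 ± 0.12, CD24 −0.05 ± 0.11, SOX9 0.06 ± 0.11 and ALDH1A1 −0.35 ± 0.31 on the log2 scale (SE, edgeR, adjusted p = 0.357 to 0.884). The calls in the other lists, read against the 4.21% of all genes, were 1 higher of 19 stem cell markers, 1 higher and 1 lower of 16 aldehyde dehydrogenases, 0 of 18 Polycomb subunits, 1 lower of 9 epithelial genes, 2 higher of 15 partners of CD44 and EPCAM, 2 higher of 4 pluripotency factors, and 2 higher and 1 lower of 8 markers of other cell types. CLDN7 was higher in SW620-TET2CD (1.44 ± 0.26, SE, edgeR, adjusted p = 0.00745), as was SOX2 (0.85 ± 0.16, SE, edgeR, adjusted p = 0.0114). LYZ was higher by 0.83 ± 0.15 (SE, edgeR, adjusted p = 0.00811) and CD68 was −1.08 ± 0.20 (SE, edgeR, adjusted p = 0.0096). PECAM1, an endothelial gene, was higher by 1.88 ± 0.27 (SE, edgeR, adjusted p = 0.00223), and the part of these 3 markers of other cell types in the values of PROM1 and SMOC2 was not tested.

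The change with time was not shown to differ between the lines for any marker. In the test of the line-by-time term, 0 of 9 markers and 0.0% of the 16526 genes passed in edgeR, where 130 genes had an unadjusted p under 0.05, and DESeq2 also called 0. CD44 had the smallest unadjusted p of the markers, with a log2 difference of −0.94 ± 0.39 (SE, edgeR, adjusted p = 1), its late mean being 1.05 times the early mean in SW620-FLAG and 0.597 times in SW620-TET2CD. The other differences were −0.15 ± 0.26 for EPCAM, 0.28 ± 0.36 for ALCAM, 0.24 ± 0.41 for PROM1, −0.06 ± 0.33 for CD24, 0.05 ± 0.41 for SMOC2, −1.21 ± 1.12 for ALDH1A1, 0.08 ± 0.26 for BMI1 and −0.21 ± 0.32 for SOX9 (log2, SE).

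**Figure D3:**
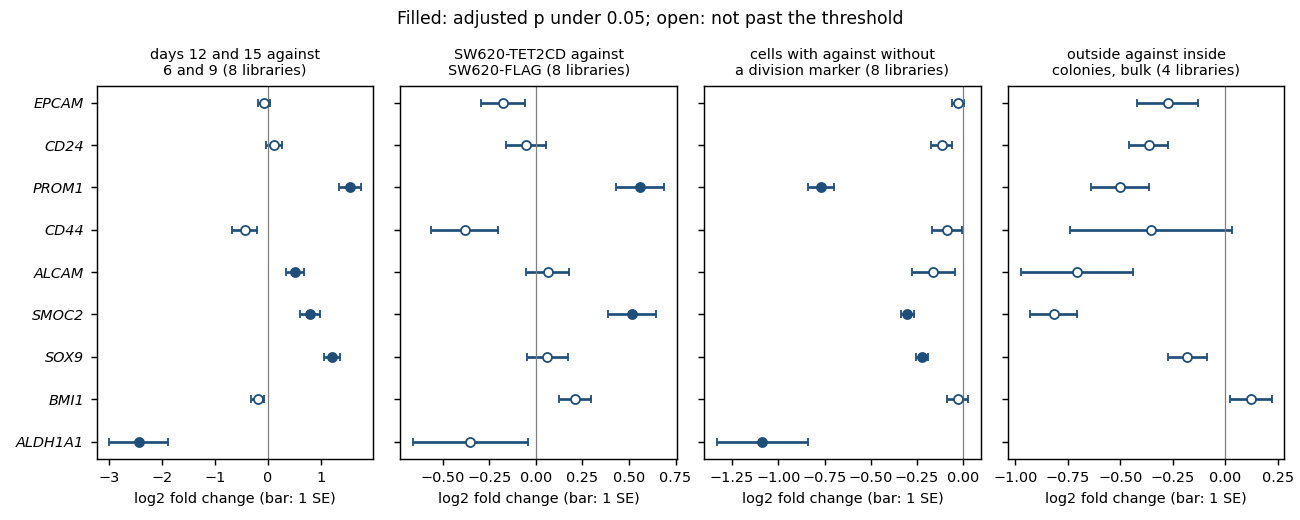
Log2 fold changes of 9 markers (x axis, with its own range in each panel) in 4 comparisons, with bars of 1 SE from edgeR. Filled points passed an adjusted p of 0.05. PROM1, SMOC2 and SOX9 lay to the right on late days and to the left in cells with a division marker, and no marker passed in the bulk comparison of locations, where ALDH1A1 was not tested.

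PROM1, SMOC2 and SOX9 were lower in cells with a division marker in 8 of 8 libraries, and ALDH1A1 in 5 of 8. In each library the cells with at least 4000 UMIs were split by whether the thinned cell had a UMI of MKI67, TOP2A or CENPF, and the UMIs of both classes were summed. The share of all genes that were lower in 8 of 8 libraries was not taken, so these counts have no background. With the library as a block, 4 of 9 markers passed, all lower in cells with a division marker, while 47.0% of the 14932 genes passed, 24.2% lower and 22.8% higher. In either direction, 4 of 9 is close to the share of genes at large. The median log2 fold change was −0.16 over the markers and −0.02 over all genes. PROM1 was lower in 8 of 8 libraries, at 0.469 to 0.727 times the level of cells without a marker. In SW620-TET2CD on day 15, for example, it stood at 16.3 CPM in cells with and 30.7 CPM in cells without a division marker (log2 fold change over all libraries −0.77 ± 0.07 (SE), edgeR, adjusted p = 6.17e-06). SMOC2 was lower in 8 of 8 libraries (−0.30 ± 0.04, SE, edgeR, adjusted p = 3.07e-05), as was SOX9 (−0.22 ± 0.03, SE, edgeR, adjusted p = 0.000111). PROM1, SMOC2 and SOX9 passed in days 6 and 9 alone and in days 12 and 15 alone.

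ALDH1A1 depended on the days. It was lower in cells with a division marker in all 4 early libraries, at 0.894 to 1.66 CPM against 1.90 to 3.88 CPM, and its log2 fold change in days 6 and 9 alone was −1.32 ± 0.15 (SE, edgeR, adjusted p = 4.57e-06). DESeq2 over all libraries gave −0.65 with an adjusted p of 0.139, which ends the call. In days 12 and 15 alone it was 0.73 ± 0.44 (SE, edgeR, adjusted p = 0.21), from at most 7 UMIs in cells with a marker per library. CD44 passed in days 6 and 9 alone (−0.19 ± 0.08, SE, edgeR, adjusted p = 0.0484). CD24 passed there too (−0.25 ± 0.04, SE, edgeR, adjusted p = 0.000114) and was 0.03 ± 0.06 in days 12 and 15 (SE, edgeR, adjusted p = 0.767). Over all libraries EPCAM was −0.03 ± 0.03, CD44 −0.09 ± 0.08, ALCAM −0.16 ± 0.12, CD24 −0.12 ± 0.06 and BMI1 −0.03 ± 0.06 (SE, edgeR, adjusted p = 0.118 to 0.916). With upper-quartile factors the gene calls were split 2485 higher to 4895 lower instead of 3406 to 3615, and EPCAM (−0.09) and CD24 (−0.18) also passed as lower (edgeR, adjusted p = 0.0275 and 0.0334). Cells with a division marker were deeper, with a median of 7341 to 14458 UMIs against 5765 to 13055.

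Other stem cell genes were called in both directions in this split, where 47.0% of all genes passed, 22.8% higher and 24.2% lower. Of the 18 tested genes of the list of other intestinal stem cell markers, 6 were higher and 2 lower in cells with a division marker. The 8 called are close to the share of genes at large. CDCA7 (0.72 ± 0.15), EPHB2 (0.20 ± 0.05) and LRIG1 (0.18 ± 0.06) were among the higher ones (SE, edgeR, adjusted p = 0.00188 to 0.0275). The 2 lower ones were CD9 (−0.14 ± 0.04) and MSI2 (−0.11 ± 0.04) (SE, edgeR, adjusted p = 0.0124 and 0.0453). SOX2, from the list of pluripotency factors, was higher (0.45 ± 0.09, SE, edgeR, adjusted p = 0.00122). The 9 tested genes of colorectal epithelium were all lower, among them ELF3 (−0.55 ± 0.05), KRT19 (−0.40 ± 0.03) and CDH1 (−0.37 ± 0.06). Of 3 tested markers of other cell types 2 were lower, CD68 (−0.40 ± 0.08, SE, edgeR, adjusted p = 0.00125) and LYZ (−0.36 ± 0.09, SE, edgeR, adjusted p = 0.0048), and their part in the values of PROM1, SMOC2 and SOX9 was not tested. Of the aldehyde dehydrogenases 4 were higher and 3 lower, with ALDH1B1 (0.46 ± 0.07), ALDH16A1 (0.44 ± 0.07) and ALDH7A1 (0.38 ± 0.08) higher. Of 18 Polycomb subunits 4 were higher and 3 lower, and of 14 partners of CD44 and EPCAM 2 were higher and 1 lower.

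**Figure D4:**
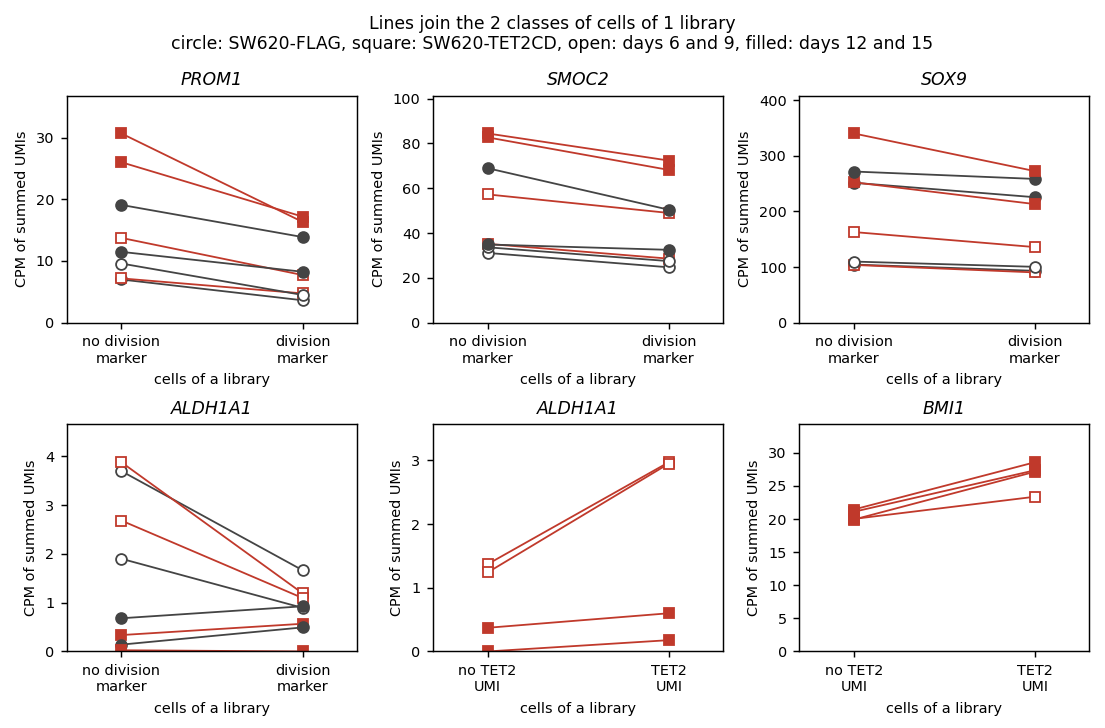
CPM of summed UMIs (y axis, starting at 0) in the 2 classes of cells of each library, joined by a line, for PROM1, SMOC2, SOX9 and ALDH1A1 split by a division marker and for ALDH1A1 and BMI1 split by a TET2 UMI. Circles are SW620-FLAG and squares SW620-TET2CD, open on days 6 and 9 and filled on days 12 and 15. PROM1, SMOC2 and SOX9 were lower with a division marker in 8 of 8 libraries, and BMI1 was higher with a TET2 UMI in 4 of 4.

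Within the SW620-TET2CD line, cells with a TET2 UMI were set against cells without one. Such a UMI was seen in 20.1%, 14.9%, 10.2% and 10.7% of thinned cells, in order of day, and in 0.768% to 1.40% of those of SW620-FLAG. Over the 4 libraries 5 of 9 markers passed, 2 higher and 3 lower in cells with a TET2 UMI, while 20% of the 15510 genes did, 8.39% higher and 11.6% lower. The median log2 fold change was −0.01 over the markers and −0.05 over all genes. BMI1 was higher in 4 of 4 libraries, at 23.4, 27.4, 28.6 and 27.2 CPM against 20.02, 21.1, 21.4 and 19.9 CPM on the 4 days (log2 fold change 0.24 ± 0.07 (SE), edgeR, adjusted p = 0.0181). ALDH1A1 was higher in 4 of 4 libraries, at 2.97 and 2.95 CPM against 1.37 and 1.24 CPM on days 6 and 9 (1.05 ± 0.25, SE, edgeR, adjusted p = 0.00628), while on day 12 its classes held 3 and 16 UMIs, and on day 15 the direction rests on 1 UMI. EPCAM (−0.19 ± 0.04), ALCAM (−0.41 ± 0.13) and CD24 (−0.16 ± 0.05) were lower (SE, edgeR, adjusted p = 0.00226 to 0.0372). EPCAM and ALCAM were lower in 3 of 4 libraries and CD24 in 2 of 4. PROM1, SMOC2, SOX9 and CD44 did not pass, with log2 values of 0.06 ± 0.09, 0.10 ± 0.05, −0.01 ± 0.04 and −0.11 ± 0.11 (SE, edgeR, adjusted p = 0.221 to 0.941).

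These calls were less firm than those by division. With upper-quartile factors the gene calls were split 1507 higher to 1406 lower instead of 1302 to 1797, and ALCAM and CD24 no longer passed (edgeR, adjusted p = 0.0567 and 0.0506). DESeq2 called EPCAM and BMI1 only, and without the library of day 9 edgeR called EPCAM only. Of the other lists, beside the 20% of all genes called (8.39% higher and 11.6% lower), 5 stem cell markers were higher and 7 lower of 19, 3 aldehyde dehydrogenases higher and 3 lower of 15, 0 Polycomb subunits higher and 5 lower of 18, and 2 partners higher and 3 lower of 15. Of 9 tested epithelial genes 3 were higher and 2 lower, and of 4 pluripotency factors 1 was higher and 0 lower. In the same split CLDN7 was higher by 1.68 ± 0.09 (SE, edgeR, adjusted p = 4.32e-09) and ALDH1A3 by 1.14 ± 0.07 (SE, edgeR, adjusted p = 2.33e-08). Of 5 tested markers of other cell types, LYZ (1.26 ± 0.08, SE, edgeR, adjusted p = 3.04e-08) and PECAM1 (2.03 ± 0.28, SE, edgeR, adjusted p = 6.75e-05) were higher and CD68 was lower (−0.73 ± 0.19, SE, edgeR, adjusted p = 0.0109), and their part in the values of the markers was not tested. TET2 messages from the endogenous gene and from the transgene could not be told apart here.

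In thinned cells, EPCAM and CD24 were detected together at 0.999 to 1.02 times the product of their shares, and EPCAM and CD44 at 0.955 to 1.04 times. CD44 and CD24 were at 0.975 to 1.25 times, above the product in 7 of 8 libraries. PROM1 and SMOC2 were together in 0.345% to 3.21% of cells, 1.31 to 1.74 times the product, above it in 8 of 8 libraries. CD44 and PROM1 were together in 3 to 13 cells per library. The points of each pair share their cells and depth, and no test was made of them.

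Genes with a like course over the 8 libraries were named by the highest Pearson r of log2(CPM + 1), as a description, since such values share their libraries and their trend with the day. For SOX9 they included IRF2BPL (r = 0.994) and ZNF224 (r = 0.992). For SMOC2 they were HIPK2 (r = 0.990), DNAJC14 (r = 0.986) and NR1D2 (r = 0.982). CD24 was most like MRPL20-AS1 (r = 0.961), KDF1 (r = 0.951) and MCL1 (r = 0.930), and EPCAM like UBE2D1 (r = 0.934), C15orf61 (r = 0.902) and CETN3 (r = 0.899).

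In bulk RNA-seq the markers separated SW480 from SW620. On day 6, SW480 had 124 TPM of CD44 and SW620 had 5.86 TPM, 21.1 times less. PROM1 was at 0.19 TPM in SW480 and 56.8 TPM in SW620, and SMOC2 at 0.10 and 58.8 TPM, where the SW480 values rest on 6 and 5 reads. CD24 was at 5.20 TPM in SW480 and 141 TPM in SW620 (27.0 times higher in SW620), and ALCAM at 0.62 and 5.94 TPM (9.58 times higher). EPCAM (294 and 407 TPM), SOX9 (82.0 and 67.9 TPM) and BMI1 (22.2 and 23.0 TPM) differed less. Of the 8 markers with at least 1 TPM in either line, 5 differed by more than 8 times, while 11.8% of the 17191 genes with at least 1 TPM in either did. With 1 library per line this difference has no replicate check. Reads shared with the readthrough gene COMMD3-BMI1, listed at 3.28 to 8.77 TPM, make the bulk values of BMI1 uncertain.

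No marker passed the test between cells outside and cells inside the colonies on day 15, and SMOC2 came nearest. In bulk samples, fewer cells of a type and less RNA per cell cannot be told apart. Of the 8 markers tested, 0 passed, as did 0.0% of 17722 genes in edgeR, which left 1 residual degree of freedom, while 1068 genes had an unadjusted p under 0.05. SMOC2 measured 101 TPM inside and 61.7 TPM outside in SW620, with 90.0 and 48.9 TPM in the other line, or 0.609 and 0.544 times the inside level. Its log2 fold change was −0.82 ± 0.11 (SE, edgeR, adjusted p = 0.772), and DESeq2 gave −0.82 with an adjusted p of 0.0045. PROM1 was at 51.4 and 44.9 TPM in SW620 and 52.2 and 34.9 TPM in SW620-TET2CD (−0.50 ± 0.14), ALCAM at 11.6 and 9.56 TPM and at 13.1 and 6.25 TPM (−0.71 ± 0.27), and CD24 at 112 and 86.3 TPM and at 111 and 91.8 TPM (−0.36 ± 0.09, SE, edgeR, adjusted p = 0.772 for each of these). EPCAM was −0.27 ± 0.15, CD44 −0.35 ± 0.39, SOX9 −0.18 ± 0.09 and BMI1 0.12 ± 0.10 (SE, edgeR, adjusted p = 0.778 to 0.865). In TPM, CD44 had the opposite sign, at 6.12 inside and 8.10 outside in SW620 and 3.41 and 3.57 in SW620-TET2CD. The test used expected counts of CD44, which went from 197 to 216 in SW620 and from 152 to 91 in SW620-TET2CD. TET2 itself was at 38.1 TPM inside and 124 TPM outside the SW620-TET2CD colonies and at 1.15 and 1.29 TPM in SW620.

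Between the lines in the same 4 bulk libraries, 0 of the 8 markers passed, while 0.412% of genes did, 0.288% higher and 0.124% lower. BMI1 was the marker with the smallest unadjusted p, at 24.2 TPM inside and 28.6 TPM outside the SW620 colonies, against 33.6 and 35.3 TPM for SW620-TET2CD (0.41 ± 0.10, SE, edgeR, adjusted p = 0.134). PROM1 was −0.26 ± 0.14 (SE, edgeR, adjusted p = 0.366) and SMOC2 −0.31 ± 0.11 (SE, edgeR, adjusted p = 0.233), both of opposite sign to the single-cell comparison over all days. On day 15 alone, the day of these bulk libraries, single-cell PROM1 was 2.55 times and SMOC2 2.37 times as high in SW620-TET2CD as in SW620-FLAG. CD44 was −0.77 ± 0.39, ALCAM −0.22 ± 0.27, EPCAM −0.03 ± 0.15, CD24 0.02 ± 0.09 and SOX9 0.08 ± 0.09 (SE, edgeR, adjusted p = 0.346 to 0.928). Of the other lists only CLDN7 (1.75 ± 0.11, SE, edgeR, adjusted p = 0.0295) and the aldehyde dehydrogenase ALDH1A2 (10.19 ± 0.83, SE, edgeR, adjusted p = 0.0457) passed, both higher in SW620-TET2CD. The late rise of SOX9 and PROM1 had no counterpart of the same size in the bulk libraries of SW620. In TPM, cells inside the colonies on day 15 had 1.04 times the SOX9 and 0.905 times the PROM1 of day 6. SMOC2 was at 1.72 times and ALCAM at 1.95 times. The late fall of ALDH1A1 was not seen between these libraries, at 0.16 TPM in both, from 4 and 2 reads. Outside the SW620 colonies it had 0 reads. In SW620-TET2CD on day 15 it was at 0.19 TPM inside and 0.32 TPM outside, from 2 and 9 reads. TPM divides by the mean transcript length, which for PROM1 was 2238 bases on day 6 and 2782 bases inside. By expected counts PROM1 had 1560 of 16470176 on day 6 and 2786 of 25241831 inside, a larger part. Outside the colonies SMOC2, at 61.7 TPM, was close to the 58.8 TPM of day 6, and SOX9 and PROM1, at 60.4 and 44.9 TPM, were below their values of 67.9 and 56.8 TPM. The bulk and single-cell libraries differ in capture and unit and have 1 library per condition, so these ratios were not tested.

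**Figure D5:**
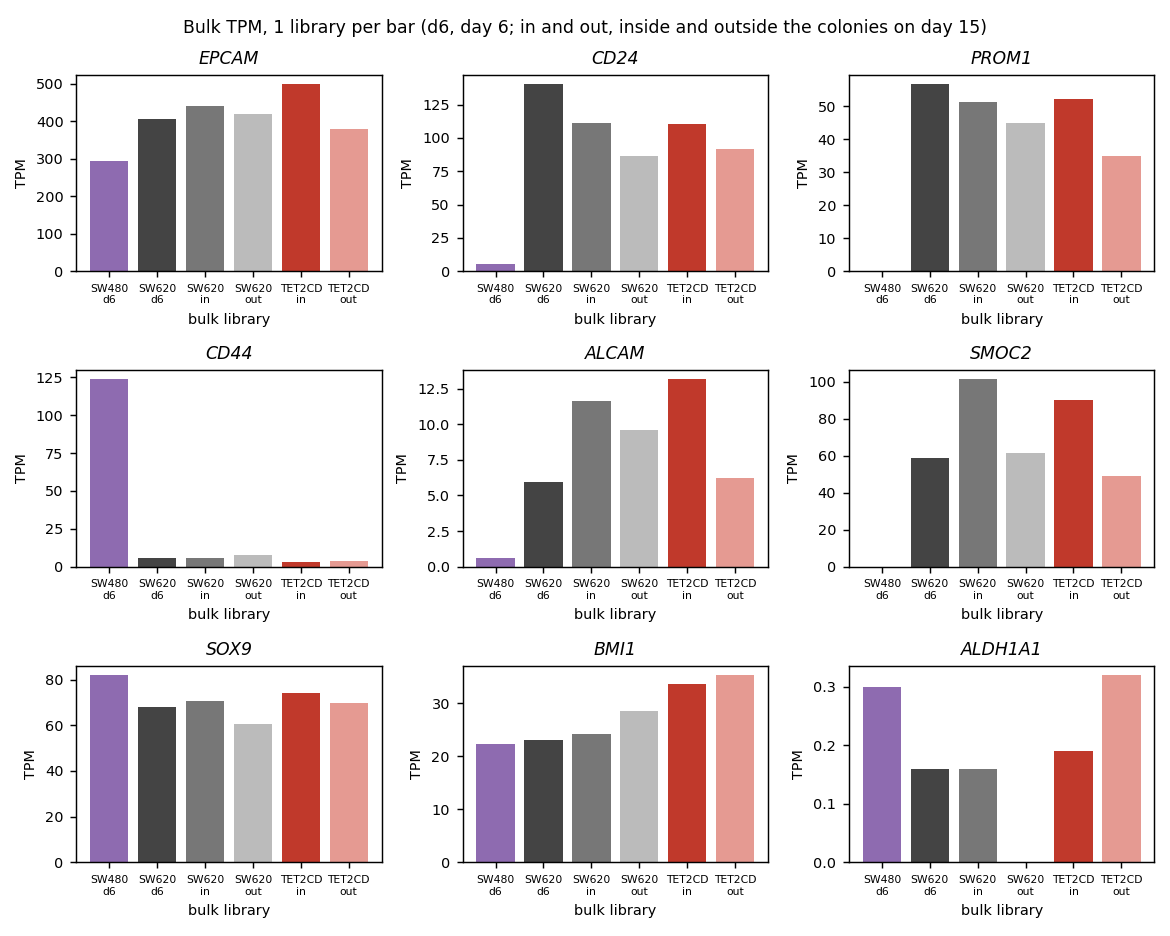
TPM (y axis, starting at 0, with its own scale in each panel) of 9 markers in the 6 bulk libraries, 1 library per bar, with both lines of day 6 followed by the inside and outside fractions of SW620 and SW620-TET2CD on day 15. CD44 was 124 TPM in SW480 and at most 8.10 TPM in the rest, and PROM1, CD24 and SMOC2 showed the reverse.

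On the GRCh38 annotation of GENCODE, EPCAM lies on chromosome 2 (47345158 to 47387601), ALCAM on chromosome 3 (105366909 to 105576900), SOX9 on chromosome 17 (72121020 to 72126416) and ALDH1A1 on chromosome 9 (72900671 to 73080442). PROM1 lies on chromosome 4 (15963076 to 16084378), and CD24 and SMOC2 both lie on chromosome 6 (106969831 to 106975627 and 168441151 to 168673445). BMI1 is on chromosome 10 (22321099 to 22331484), CD44 on chromosome 11 (35138882 to 35232402) and OLFM4 on chromosome 13 (53028813 to 53052057).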

How the data were processed

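The authors deposited UMI counts per gene and cell barcode, made with Cell Ranger 4.0 against GRCh38 per the labels, and RSEM tables that list, by gene, expected counts and TPM values. The processing notes of the bulk libraries name Bowtie, RSEM and the build mm10, while the gene identifiers are human. The annotation release of the bulk tables is in no source used here. These expected counts were rounded to whole numbers, and 45 Y copies of pseudoautosomal genes were left out of the bulk totals. UMIs were summed over kept cells per library, so the library is the unit of the tests of time, line and their product in single cells. The division and TET2 splits used a sum for each class of cells in a library, from kept cells with at least 4000 UMIs, with the library as a block. Doublets were not called, and an alternative dropped the deepest 8% of cells. The study states a smaller number of cells than its limits leave here. Tests used edgeR 4.0.16 (filterByExpr on the compared term, TMM, two-sided quasi-likelihood F test, SE as the absolute log2 fold change over the square root of F) and p-values adjusted by Benjamini-Hochberg across every gene tested, with DESeq2 1.42.0 as an alternative, in R 4.3.3. Cells were read with numpy 2.4.6, scipy 1.17.1 and pandas 2.3.3 in Python 3.11.15, and the edgeR tests were also run on simulated counts. Thinning drew 4000 UMIs per cell without replacement and left out 0.577% to 9.16% of cells per library as shallower. Every member that was tested is named in each comparison. Of each other list, the 3 genes named changed most among those that passed, in the same direction in each pair, at a mean level of 8 CPM or more. Genes of like course need a member with a mean of at least 20 CPM. Outside this rule, values are given for COMMD3-BMI1, TET2, PECAM1, CD9, MSI2 and the genes of the marker checks. The members and lists were chosen with earlier results of these data known. Some genes that the rule names are not reported here.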

Additional observations from a re-analysis of the deposited data

How the results depend on the processing

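No paired analysis was possible because the labels give 1 library per condition and no shared replicate numbers. This concerns replicate numbers only, since the tests were already blocked by day, line or library. Of 803 alternative values of the markers, 675 kept their direction and their side of the threshold, 33 became weaker, 12 stronger, 43 changed sign and 40 moved, and the cause was not tested. Late against early days, EPCAM was 0.10 with upper-quartile factors and CD24 −0.019 in cells without a division marker (log2, as below). Without a filter on low counts CD44 also passed there, at −0.48 (edgeR, adjusted p = 0.0133). Between the lines in single cells, 0 markers passed with no block and 1 with a mitochondrial limit of 20%, without the 8% of cells with most UMIs or in cells without a division marker. Genes called were 1489 with no filter on low counts and 46 with no block. ALCAM was −0.0032 over every barcode and −0.0044 with no upper limits, and CD24 0.0021 and 0.0086 in cells without and with a division marker. Leaving out 1 library at a time gave 0 to 2 markers (0 without a library of day 9 or day 15), 416 to 680 genes (416 without SW620-FLAG day 9 and 426 without SW620-TET2CD day 9), ALCAM −0.0022 to 0.17, CD24 −0.13 to 0.017 and SOX9 −0.042 to 0.11. For line by time, 15 genes passed with no filter, PROM1 was −0.061 and CD24 0.090 in cells with a division marker, and BMI1 −0.031 in cells without. Leaving out 1 library gave EPCAM −0.35 to 0.0067, PROM1 −0.10 to 0.68, ALCAM −0.011 to 0.64, CD24 −0.33 to 0.27, SOX9 −0.46 to 0.11, SMOC2 −0.31 to 0.50 and BMI1 −0.11 to 0.28. By location in bulk, DESeq2 called 24 genes and 1 marker (SMOC2), and no filter gave 472 genes and 3 markers (PROM1, ALCAM and SMOC2). Between the lines in bulk, genes called were 704 with DESeq2, 178 with upper-quartile factors, 2239 with no filter and 8 with no block. In the division split, EPCAM was 0.011 and BMI1 0.013 with no filter, BMI1 was 0.021 on days 6 and 9, and on days 12 and 15 CD44 was 0.055, CD24 0.025 and ALDH1A1 0.73. BMI1 ranged from −0.060 to 0.0073 over the left-out libraries. In the TET2 split, 2 markers and 2037 genes passed with DESeq2, 3 markers with upper-quartile factors, where SOX9 was 0.021, and 3 markers and 1780 genes when the split was set at 2 UMIs, where PROM1 was −0.24 and SMOC2 −0.015. Leaving out 1 library gave 1 to 4 markers, 1771 to 2831 genes, PROM1 −0.049 to 0.15 and SOX9 −0.047 to 0.061, the lowest counts being those without day 9. With 1 library per condition, a bulk arm left with a lone library has no test, and low counts limit ALDH1A1 and OLFM4.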
